A study of Mus musculus with 384 samples.

Results

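The 38 genes described here are 31 immediate early genes and 7 heat-shock genes of the mouse, taken by symbol from a list of such genes, among 49585 genes counted in single mammary epithelial cells. All 38 were found in the table. They were described because the isolation of cells can itself induce them, so their levels, and their spread between cells, bear on how the rest of such data is read. RNA was sequenced by the full-length Smart-seq2 method from single sorted cells in 1 plate of 384 wells, with 5 wells that received many cells and 5 negative control wells. Cells were sorted as Tomato+ and without CD45, CD31 or CD140a, and by CD29 and EpCAM.

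The groups were ablated hybrid, ablated luminal and ablated basal cells, and wild-type (WT) luminal and WT basal cells, as the labels name them. All of them, WT included, came from K8rtta/TetO-DTA/K5CreER/Rosa-Tomato mice of mixed background. In this strain the keratin 8 promoter drives rtTA, which with doxycycline switches on diphtheria toxin in luminal cells, and keratin 5 CreER drives the Tomato label in basal cells. Ablated glands were given 0.2 mg of doxycycline by intraductal injection and their cells were sorted 1 week later. The labels record neither injection nor doxycycline for the WT glands, so ablation, injection, doxycycline and animal cannot be told apart between ablated and WT groups. The labels say that Tomato+ cells were sorted, but not whether WT luminal cells carried Tomato. A difference in origin between ablated luminal and WT luminal cells therefore cannot be told apart from these either. The age and number of the animals, the animal behind each cell, the gate that defined hybrid cells and the number of cells in the wells of many cells are not given in the sources used here. Each group therefore counts as 1 sample, no comparison has a replicate check, and no p-value is given anywhere below.

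Of 374 single-cell wells 319 were kept, namely 85 ablated hybrid, 76 ablated luminal, 71 ablated basal, 43 WT luminal and 44 WT basal cells. Reads per kept cell ran from 118310 to 3835005, with the lowest group median, 677373, in ablated basal and the highest in WT luminal cells. The median number of genes was highest, at 6906, in ablated hybrid and lowest, at 4503, in ablated basal cells, and the median mitochondrial share was highest, at 3.57%, in ablated basal and lowest, at 1.99%, in WT luminal cells. Markers went with the labels. The 9 basal markers summed to 17745 CPM (reads of a gene scaled to all reads in genes) in ablated hybrid, 6413 CPM in ablated luminal, 33650 CPM in ablated basal, 168 CPM in WT luminal and 21079 CPM in WT basal cells. The 9 luminal markers summed to 14400 CPM in ablated hybrid, 23400 CPM in ablated luminal, 1050 CPM in ablated basal, 27548 CPM in WT luminal and 1573 CPM in WT basal cells. Immune markers summed to at most 42.8 CPM, with Ptprc (CD45) at 0 reads in every group but ablated hybrid cells, endothelial markers to at most 7.39 CPM, pericyte markers to at most 40.6 CPM and adipocyte markers to at most 0.065 CPM. Erythroid markers reached 795 CPM in ablated hybrid and at most 11.4 CPM in other cells. Fibroblast markers, nearly all Dcn, reached 1954 CPM in ablated basal cells, with Lum at 0 in every group. The part of these other cell types in the results was not tested. The groups were laid out in blocks on the plate, so position and group cannot be told apart except on the lines where blocks meet.

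Immediate early genes are transcribed within minutes of a signal, without new protein synthesis, and their transcripts are short-lived. Most encode transcription factors, such as the Fos and Jun proteins that pair to form AP-1, and many of the others encode inhibitors that shut the response down again. Serum response factor, bound at a motif called the CArG box, and CREB, bound at the cAMP response element, are textbook activators of this class. Heat-shock genes encode chaperones, proteins that hold or refold other proteins, and are switched on by heat-shock factor 1 under heat and other stress. Both sets are known to be induced when solid tissues are digested into single cells.

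The promoters of 6 members are shown: Fos, the member with most reads in every group but ablated luminal, Egr2, the one with the widest range between groups, Dusp1 and Dusp5, inhibitors that carry the motifs of CREB and of serum response factor, and the near-identical pair Hspa1a and Hspa1b. They are given 5′ to 3′ from RefSeq in build GRCm38.p6, ending at the annotated start or, for Dusp1 and Dusp5, where the first exon of any annotated transcript begins. Capitals mark TATAAA in Fos, TGACGTCA (the cAMP response element) in Dusp1 and the CArG box in Egr2 and Dusp5. None of the motifs searched was found in its exact letters in the Hspa1a and Hspa1b windows. Elements with a changed base or gap were not searched, so these windows may still hold some.
Fos, GRCm38.p6 chr12:85473640-85473889, plus strand: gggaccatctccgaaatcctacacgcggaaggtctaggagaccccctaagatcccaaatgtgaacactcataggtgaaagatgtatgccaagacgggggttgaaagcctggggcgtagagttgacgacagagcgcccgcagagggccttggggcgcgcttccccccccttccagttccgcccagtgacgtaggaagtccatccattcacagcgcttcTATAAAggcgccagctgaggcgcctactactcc
Egr2, GRCm38.p6 chr10:67537619-67537868, plus strand: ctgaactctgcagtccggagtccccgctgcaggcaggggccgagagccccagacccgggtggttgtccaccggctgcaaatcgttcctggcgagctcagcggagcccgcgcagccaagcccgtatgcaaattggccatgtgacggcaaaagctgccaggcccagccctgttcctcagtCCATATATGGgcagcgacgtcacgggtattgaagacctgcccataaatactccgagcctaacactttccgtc
Dusp1, GRCm38.p6 chr17:26508520-26508722, minus strand: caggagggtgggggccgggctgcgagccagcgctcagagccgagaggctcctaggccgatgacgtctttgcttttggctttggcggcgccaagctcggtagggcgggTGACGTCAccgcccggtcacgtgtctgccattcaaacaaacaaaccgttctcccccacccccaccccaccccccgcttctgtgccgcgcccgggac
Dusp5, GRCm38.p6 chr19:53528895-53529108, plus strand: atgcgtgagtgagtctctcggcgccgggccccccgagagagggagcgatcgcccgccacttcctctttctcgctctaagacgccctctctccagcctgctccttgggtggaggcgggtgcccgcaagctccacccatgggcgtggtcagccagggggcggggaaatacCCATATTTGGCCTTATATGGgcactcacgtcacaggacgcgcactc
Hspa1a, GRCm38.p6 chr17:34972157-34972406, minus strand: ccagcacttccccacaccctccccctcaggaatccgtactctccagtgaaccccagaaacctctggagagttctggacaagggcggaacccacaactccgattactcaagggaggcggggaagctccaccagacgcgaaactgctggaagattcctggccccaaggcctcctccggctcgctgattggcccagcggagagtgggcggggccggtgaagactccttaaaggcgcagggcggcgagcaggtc
Hspa1b, GRCm38.p6 chr17:34959239-34959488, minus strand: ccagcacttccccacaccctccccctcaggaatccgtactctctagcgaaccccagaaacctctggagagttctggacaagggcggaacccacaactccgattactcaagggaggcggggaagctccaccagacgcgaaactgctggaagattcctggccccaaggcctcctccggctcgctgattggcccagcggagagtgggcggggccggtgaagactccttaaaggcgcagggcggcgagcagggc

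The TATAAA of Fos lay 33 to 28 bases before the start. The window of Egr2, 1 of several that RefSeq gives for this gene, held a CArG box 72 to 63 bases before its start, and that of Dusp5 held a pair of them side by side at 82 to 63 bases. The windows of Hspa1a and Hspa1b, which lie next to each other on the same strand of chromosome 17, were equal at 247 of 250 bases. Promoters were matched for 30 of the 38 members, 25 immediate early and 5 heat-shock genes. No window was at hand for Fosl1, Egr1, Egr3, Myc, Cebpd, Ier2, Hspa8 and Hsp90aa1, so these were not searched. These 30 members had 39 windows, and a member counted where any of its windows held the letters. The shares of all promoters are per window, so the units differ. TATAAA was found on either strand in 6 of the 25 (Btg1, Fos, Gadd45b, Gadd45g, Nr4a2 and Zfp36l1) and in 0 of the 5, against 12.4% of all 32851 promoters. TGACGTCA was found in Btg2, Dusp1 and Maff, against 1.55% of all promoters, and the CArG box in Dusp5, Egr2 and Zfp36, against 1.47%. TGACTCA, the AP-1 site, was found in 0 members, against 4.46% of all promoters. The heat-shock element, taken as 3 exact blocks of GAA and TTC in alternation 2 bases apart, was found in 0 members too, against 0.466%. Imperfect heat-shock elements are missed by this pattern. Elements of any kind further than 250 bases before the start were not searched, so a member without a match may still hold some. A match describes these letters only.

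Immediate early genes took a large part of the RNA of every group. Reads of the 31 genes made up 1.797% of all reads in genes in ablated hybrid, 1.53% in ablated luminal, 3.22% in ablated basal, 1.96% in WT luminal and 3.53% in WT basal cells. The share was higher in both basal groups than in the others. Over cells the summed level had a median of 16722 CPM (quartiles 11081 and 22492 CPM) in ablated hybrid, 12636 CPM (8013 and 21192 CPM) in ablated luminal, 27351 CPM (20508 and 40864 CPM) in ablated basal, 16906 CPM (10015 and 33252 CPM) in WT luminal and 33236 CPM (20145 and 45904 CPM) in WT basal cells. No cell was without these transcripts: the lowest sum was 1595 CPM in an ablated luminal cell and the highest 89262 CPM in an ablated basal cell. The spread was widest in WT luminal cells, where the 90th percentile was 8.95 times the 10th, against 3.47 times in ablated basal cells. The median cell had 5 or more reads, after thinning every cell to 100000 reads, of 24 of the 31 genes in ablated hybrid, 20 in ablated luminal, 20 in ablated basal, 18 in WT luminal and 19 in WT basal cells.

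The 7 heat-shock genes were a small part of the RNA by comparison, at 0.0833% of reads in ablated hybrid, 0.0957% in ablated luminal, 0.104% in ablated basal, 0.0531% in WT luminal and 0.0993% in WT basal cells. Their summed level had a median over cells of 660.1 CPM in ablated hybrid, 824 CPM in ablated luminal, 750.0 CPM in ablated basal, 478 CPM in WT luminal and 783 CPM in WT basal cells. WT luminal cells were the lowest, and the quartile ranges of all 5 groups overlapped. Ablated luminal cells had the lowest median for immediate early and the highest for heat-shock genes.

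**Figure D1:**
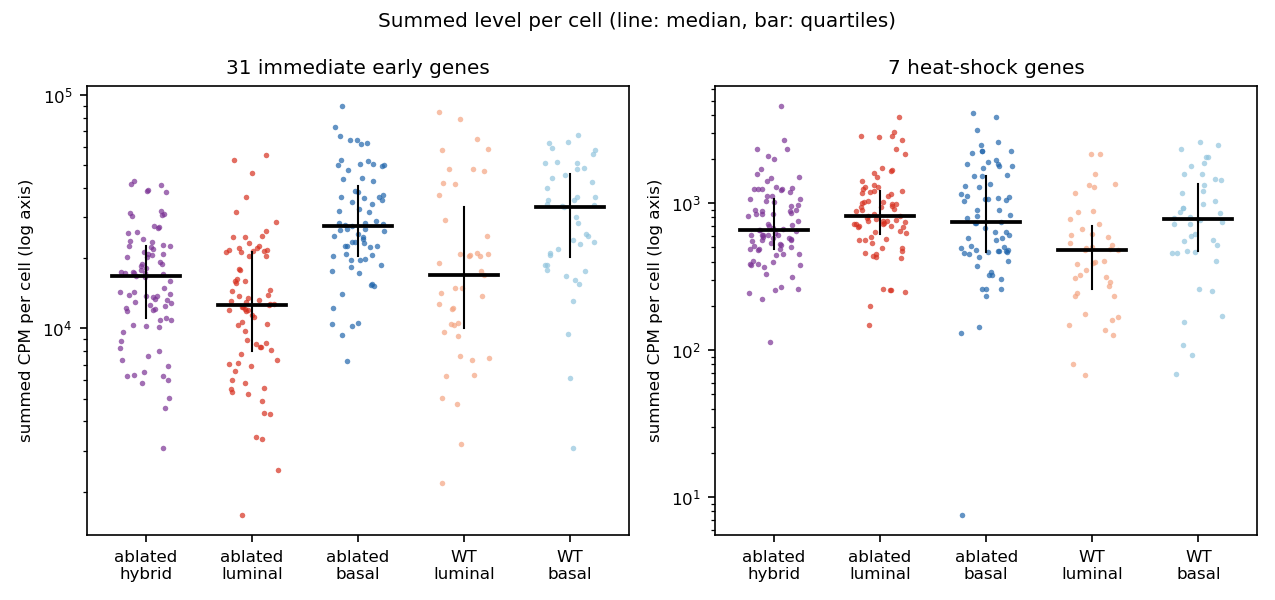
Summed level per cell (CPM, log axis) of the 31 immediate early genes (left) and the 7 heat-shock genes (right); each point is a kept cell, lines are medians and bars run between the quartiles. Immediate early medians lie at 27351 CPM in ablated basal and 33236 CPM in WT basal cells, above those of the other 3 groups.

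On lines C and E of the plate, each shared by a pair of groups with at least 5 kept cells of both, the order was the same as over whole groups. On line E the immediate early sum had a median of 23460 CPM in 9 ablated basal cells, against 34235 CPM in 13 WT basal cells. On line C it had a median of 16906 CPM in 11 WT luminal cells, against 32752 CPM in 10 WT basal cells. Medians by plate line within a group ranged from 14322 to 17845 CPM in ablated hybrid, 10686 to 15173 CPM in ablated luminal, 23326 to 34688 CPM in ablated basal, 12662 to 20838 CPM in WT luminal and 28170.5 to 34235 CPM in WT basal cells. The lines of the basal groups all lay above the lines of the other groups.

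Negative control wells held 7930 to 13572 reads in genes, of which 208 to 277 were immediate early reads. Fos, with a mean of 60.6 reads per negative well, was the member most often found there. Scaled to the wells of a group, those reads came to a median of 1.00% of a member's level, and exceeded 10% for 3 of 190 gene and group pairs, namely Egr2 in WT luminal (10.2%), Cebpb in ablated luminal (15.3%) and Hsph1 in WT basal cells (27.3%). Counting intervals were narrow: among the 166 levels of 50 CPM or more, the exact Poisson 95% interval reached at most 3.66% from the value. Amplified reads without molecular tags are not independent molecules, so these intervals, and those of shares of cells, cover counting error only.

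The levels below are CPM after pooling the reads of a group's kept cells. Medians over cells are given with the quartiles in parentheses. A gene counts as found in a cell with at least 5 of 100000 reads, and shares of cells carry exact Clopper-Pearson 95% intervals. Log2 ratios were taken between group levels after adding 10 CPM to each, which draws the ratios of low genes towards 0. A gene was measured where its mean over the 5 groups reached 5 CPM, as for 11106 genes and 37 members, and a ratio was called higher or lower at 2-fold or more.

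**Figure D2:**
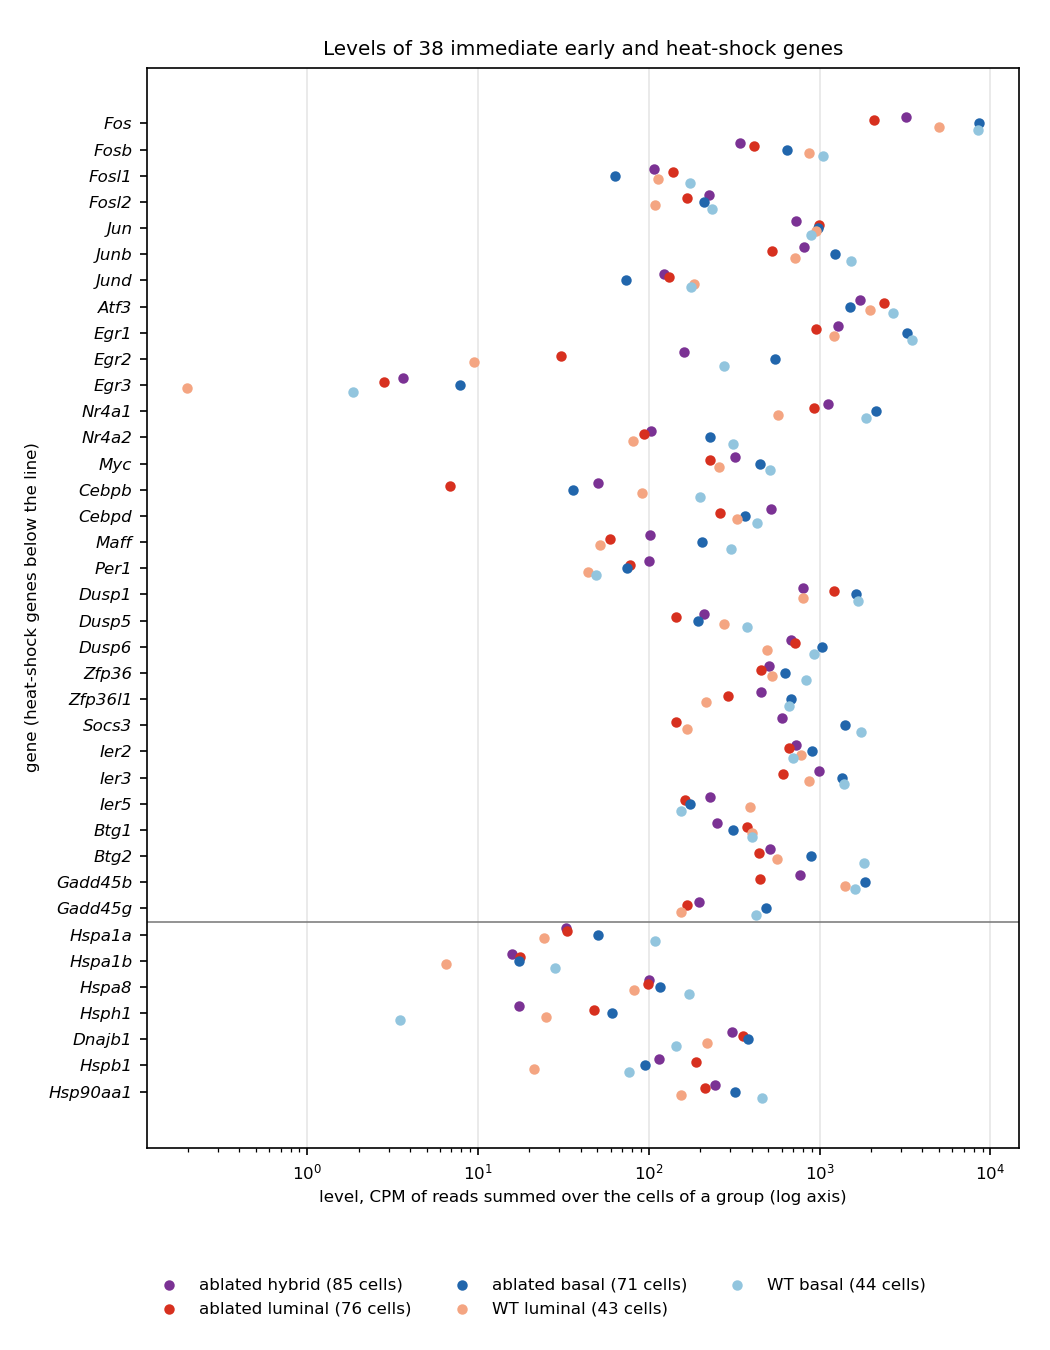
Level of each of the 38 genes in the 5 groups (CPM of pooled cells, log axis), 1 point per group, with heat-shock genes below the line. Fos lies between 2089.8 CPM in ablated luminal and 8570 CPM in ablated basal cells and has the most reads of the 38 in every group but ablated luminal, where Atf3 has 2385 CPM, and Egr3 the fewest, from 0.197 CPM in WT luminal to 7.90 CPM in ablated basal cells.

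Among the AP-1 genes, Fos was abundant everywhere and most abundant in basal cells. Fos (ENSMUSG00000021250.13, GRCm38 chr12:85473890-85477273, plus strand), the partner of Jun in AP-1, had 3194 CPM in ablated hybrid, 2089.8 CPM in ablated luminal, 8569.5 CPM in ablated basal, 5002 CPM in WT luminal and 8426 CPM in WT basal cells. Both basal groups were alike and high, and ablated luminal cells were lowest. Fos had a median over cells of 2155 CPM (922 to 4331) in ablated hybrid, 634 CPM (141 to 2987) in ablated luminal, 7359 CPM (2366 to 13644) in ablated basal, 1827 CPM (424 to 10122) in WT luminal and 5289 CPM (1599.6 to 12610.1) in WT basal cells. Fos was found in 98.8% (93.6% to 99.97%) of ablated hybrid cells, 86.8% (77.1% to 93.5%) of ablated luminal cells, 100% (94.9% to 100%) of ablated basal cells, 93.0% (80.9% to 98.5%) of WT luminal cells and 100% (91.96% to 100%) of WT basal cells. Per kilobase of exon Fos had the highest level of the members in each basal group, 3644 CPM per kb in ablated basal and 3582 CPM per kb in WT basal cells.

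Jun (ENSMUSG00000052684.4, GRCm38 chr4:95049034-95052222, minus strand), the core partner of all Fos proteins, was nearly level across the groups, with 732 CPM in ablated hybrid, 996 CPM in ablated luminal, 974 CPM in ablated basal, 951 CPM in WT luminal and 891 CPM in WT basal cells. The 5 log2 ratios of Jun lay between −0.44 and 0.13. Jun had a median over cells of 467 CPM (181 to 954) in ablated hybrid, 586 CPM (226 to 1404) in ablated luminal, 612 CPM (147 to 1303) in ablated basal, 578 CPM (95.2 to 1366) in WT luminal and 633 CPM (193 to 1259) in WT basal cells. These quartile ranges overlapped in all groups, and the gene was found in 93.4% (85.3% to 97.8%) of ablated luminal cells, the highest share, and 86.05% (72.1% to 94.7%) of WT luminal cells, the lowest share. Jun shares exon sequence with Junos on the opposite strand, and counts without strand cannot tell them apart.

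Junb, which antagonises Jun in some settings, followed Fos rather than Jun. It had 813 CPM in ablated hybrid, 528 CPM in ablated luminal, 1239 CPM in ablated basal, 714 CPM in WT luminal and 1537 CPM in WT basal cells. Junb was higher in both basal groups than in any other. Its median over cells was 651 CPM (355 to 975) in ablated hybrid, 453 CPM (199.8 to 662) in ablated luminal, 933 CPM (556 to 1479.8) in ablated basal, 609.6 CPM (407 to 1069) in WT luminal and 1106 CPM (566 to 1689) in WT basal cells. Junb was found in 89.5% (80.3% to 95.3%) of ablated luminal cells, the lowest share, and 100% (94.9% to 100%) of ablated basal cells, the highest share. Its exons overlap those of Prdx2 on the opposite strand.

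Fosb, whose short form is a long-lived AP-1 subunit in neurons, had 345 CPM in ablated hybrid, 415 CPM in ablated luminal, 646 CPM in ablated basal, 863 CPM in WT luminal and 1044 CPM in WT basal cells. The WT groups were higher than the ablated groups. Fosb had a median over cells of 279 CPM (113 to 546) in ablated hybrid, 249 CPM (60.3 to 558) in ablated luminal, 542 CPM (155 to 945) in ablated basal, 543 CPM (158 to 1562) in WT luminal and 553 CPM (57.7 to 1255) in WT basal cells. Its quartile range in WT basal cells spanned those of the 3 ablated groups. Fosb was found in 88.7% (79% to 95.01%) of ablated basal cells, the highest share, and 77.3% (62.2% to 88.5%) of WT basal cells, the lowest share.

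Fosl1 and Fosl2, the Fra proteins that follow Fos in time, were expressed in fewer cells. Fosl1 had 108 CPM in ablated hybrid, 138 CPM in ablated luminal, 63.4 CPM in ablated basal, 113 CPM in WT luminal and 175 CPM in WT basal cells. Its level in ablated basal cells was the lowest, and 1 cell held 31.7% of those reads. Fosl1 had a median over cells of 27.8 CPM (1.07 to 178) in ablated hybrid, 15.9 CPM (1.04 to 145) in ablated luminal, 1.128 CPM (0 to 5.53) in ablated basal, 1.76 CPM (0.613 to 60.6) in WT luminal and 2.22 CPM (0 to 61.5) in WT basal cells. Fosl1 was found in 42.4% (31.7% to 53.6%) of ablated hybrid cells, the highest share, and 11.3% (4.99% to 21%) of ablated basal cells, the lowest share. Its level was highest in another group, WT basal cells. Fosl2 had 227 CPM in ablated hybrid, 168 CPM in ablated luminal, 209.5 CPM in ablated basal, 109 CPM in WT luminal and 236 CPM in WT basal cells. WT luminal cells were lowest and the other groups close. Fosl2 had a median over cells of 116 CPM (23.6 to 335) in ablated hybrid, 49.3 CPM (4.87 to 283) in ablated luminal, 13.04 CPM (2.02 to 203) in ablated basal, 5.41 CPM (2.11 to 150.5) in WT luminal and 8.89 CPM (1.86 to 274) in WT basal cells. Fosl2 was found in 64.7% (53.6% to 74.8%) of ablated hybrid cells, the highest share, and 37.2% (22.98% to 53.3%) of WT luminal cells, the lowest share.

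Jund, the most constitutive Jun protein, and Atf3, a stress-induced AP-1 partner, did not follow Fos. Jund had 124 CPM in ablated hybrid, 131 CPM in ablated luminal, 73.7 CPM in ablated basal, 185 CPM in WT luminal and 177 CPM in WT basal cells. Ablated basal cells were the lowest of the 5 groups, and the WT groups nearly equal. Jund had a median over cells of 103 CPM (50.1 to 162) in ablated hybrid, 135 CPM (80.1 to 168) in ablated luminal, 61.9 CPM (30.4 to 114) in ablated basal, 179 CPM (107 to 229) in WT luminal and 94.3 CPM (55.2 to 209.6) in WT basal cells. Fosl1 shares exon sequence with Ccdc85b and Jund with Gm11175 on the opposite strand. Jund was found in 63.4% (51.1% to 74.5%) of ablated basal cells, the lowest share, and 90.7% (77.9% to 97.4%) of WT luminal cells, the highest share. Atf3 had 1724 CPM in ablated hybrid, 2385 CPM in ablated luminal, 1507 CPM in ablated basal, 1968 CPM in WT luminal and 2695 CPM in WT basal cells, and none of its 5 ratios reached 2-fold. Its median over cells was 356 CPM in ablated basal against 1652 CPM in WT basal cells, a wider gap than between the group levels.

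All 4 measured zinc finger and nuclear receptor genes had higher levels in both basal groups than in the other groups. Egr1, a zinc finger factor induced together with Fos, had 1283 CPM in ablated hybrid, 958 CPM in ablated luminal, 3269.9 CPM in ablated basal, 1209 CPM in WT luminal and 3461 CPM in WT basal cells. Both basal groups stood well above the other 3. Egr1 had a median over cells of 1127 CPM (686 to 1939) in ablated hybrid, 572 CPM (142 to 1324) in ablated luminal, 3032 CPM (1636 to 5058) in ablated basal, 991 CPM (162 to 2024) in WT luminal and 2552 CPM (981 to 5523) in WT basal cells. The lower quartile of ablated basal cells lay above the median of every group but WT basal. Egr1 was found in 85.5% (75.6% to 92.5%) of ablated luminal cells, the lowest share, and 100% (94.9% to 100%) of ablated basal cells, the highest share.

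Egr2 (ENSMUSG00000037868.15, GRCm38 chr10:67535475-67542188, plus strand), a related factor known from hindbrain and Schwann cells, was the member with the largest range between groups. It had 160.4 CPM in ablated hybrid, 30.6 CPM in ablated luminal, 551 CPM in ablated basal, 9.52 CPM in WT luminal and 278 CPM in WT basal cells. WT luminal cells were lowest, with 1 cell holding 72.97% of their reads, and hybrid cells lay between the ablated luminal and ablated basal groups. Egr2 had a median over cells of 37.7 CPM (4.26 to 219.9) in ablated hybrid, 0.444 CPM (0 to 4.8) in ablated luminal, 232 CPM (5.81 to 898) in ablated basal, 0.955 CPM (0.415 to 1.86) in WT luminal and 4.22 CPM (1.995 to 228) in WT basal cells. Egr2 was found in 45.9% (35.02% to 57.04%) of ablated hybrid cells, 15.8% (8.43% to 25.96%) of ablated luminal cells, 57.7% (45.4% to 69.4%) of ablated basal cells, 4.65% (0.568% to 15.8%) of WT luminal cells and 38.6% (24.4% to 54.5%) of WT basal cells. Egr3, the member left unmeasured, had 0.197 to 7.90 CPM.

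Nr4a1 and Nr4a2 encode orphan nuclear receptors. Nr4a1 had 1124 CPM in ablated hybrid, 928 CPM in ablated luminal, 2146 CPM in ablated basal, 574 CPM in WT luminal and 1859 CPM in WT basal cells. The basal groups were higher. Nr4a1 had a median over cells of 702 CPM (202 to 1521) in ablated hybrid, 447 CPM (36.1 to 1004) in ablated luminal, 941 CPM (106 to 2463) in ablated basal, 171 CPM (10.1 to 850.3) in WT luminal and 1026 CPM (138 to 1793) in WT basal cells. Nr4a1 was found in 88.2% (79.4% to 94.2%) of ablated hybrid cells, the highest share, and 65.1% (49.1% to 78.99%) of WT luminal cells, the lowest share. Nr4a2 had 103 CPM in ablated hybrid, 94.3 CPM in ablated luminal, 229.5 CPM in ablated basal, 80.6 CPM in WT luminal and 313 CPM in WT basal cells, again higher in the basal groups. Its median over cells was 37.1 CPM (3.28 to 159) in ablated hybrid, 2.22 CPM (0 to 41.02) in ablated luminal, 9.74 CPM (1.88 to 242) in ablated basal, 2.28 CPM (0.799 to 30.99) in WT luminal and 4.44 CPM (1.57 to 84.8) in WT basal cells. Nr4a2 was found in 47.1% (36.1% to 58.2%) of ablated hybrid cells, the highest share, and 23.3% (11.8% to 38.6%) of WT luminal cells, the lowest share.

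Cebpb (ENSMUSG00000056501.3, GRCm38 chr2:167688915-167690418, plus strand), a leucine zipper factor needed for mammary epithelial development, had a lower level in each ablated group than in either WT group in single cells. It had 50.3 CPM in ablated hybrid, 6.85 CPM in ablated luminal, 36.3 CPM in ablated basal, 91.2 CPM in WT luminal and 199.6 CPM in WT basal cells. In the libraries of many cells the order differed, with 103 CPM in ablated hybrid, 33.03 CPM in ablated luminal, 37.4 CPM in ablated basal, 9.95 CPM in WT luminal and 61.6 CPM in WT basal cells. Reads at the rate of the negative wells would make up 15.3% of the level in ablated luminal cells. Cebpb had a median over cells of 15.9 CPM (6.78 to 66.04) in ablated hybrid, 1.44 CPM (0 to 7.73) in ablated luminal, 13.2 CPM (1.44 to 67.6) in ablated basal, 32.6 CPM (4.41 to 154) in WT luminal and 68.6 CPM (14.9 to 302) in WT basal cells. Cebpb was found in 37.6% (27.4% to 48.8%) of ablated hybrid cells, 6.58% (2.17% to 14.7%) of ablated luminal cells, 28.2% (18.1% to 40.1%) of ablated basal cells, 46.5% (31.2% to 62.3%) of WT luminal cells and 59.1% (43.2% to 73.7%) of WT basal cells. Cebpb overlaps an exon of Tmem189 on the opposite strand, and which of them gave a read cannot be told apart.

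Maff, a small Maf protein that pairs with other leucine zipper factors, had 101 CPM in ablated hybrid, 59.04 CPM in ablated luminal, 206 CPM in ablated basal, 51.9 CPM in WT luminal and 304 CPM in WT basal cells. It was higher in the basal groups. Maff had a median over cells of 48.6 CPM (11.9 to 179.9) in ablated hybrid, 17.9 CPM (1.34 to 77.3) in ablated luminal, 26.8 CPM (2.44 to 176) in ablated basal, 17.1 CPM (1.35 to 63.9) in WT luminal and 68 CPM (2.46 to 229) in WT basal cells. Maff was found in 51.8% (40.7% to 62.7%) of ablated hybrid cells, the highest share, and 30.2% (17.2% to 46.1%) of WT luminal cells, the lowest share. Myc, which drives growth and division, ranged from 229 to 511 CPM and was lowest in ablated luminal and highest in WT basal cells. Cebpd, a relative of Cebpb, ranged from 261 to 521 CPM and was highest in hybrid cells. Per1, a clock gene that also responds to serum and cAMP, ranged from 43.9 to 101 CPM and was highest in hybrid cells. None of these 3 reached 2-fold in a comparison.

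Among the feedback and growth arrest genes was Socs3 (ENSMUSG00000053113.3, GRCm38 chr11:117966079-117970047, minus strand), which inhibits signalling through cytokine receptors and STAT3. It had 600.0 CPM in ablated hybrid, 144 CPM in ablated luminal, 1411 CPM in ablated basal, 168 CPM in WT luminal and 1749.8 CPM in WT basal cells. Luminal cells of both conditions were far below the basal groups, and hybrid cells lay between. Socs3 had a median over cells of 340.2 CPM (95.7 to 678) in ablated hybrid, 8.62 CPM (2.03 to 176) in ablated luminal, 724 CPM (245 to 2043) in ablated basal, 14.8 CPM (2.53 to 215) in WT luminal and 792 CPM (198 to 2564) in WT basal cells. Socs3 was found in 83.5% (73.9% to 90.7%) of ablated hybrid cells, 38.2% (27.2% to 50.02%) of ablated luminal cells, 91.5% (82.5% to 96.8%) of ablated basal cells, 41.9% (27.01% to 57.9%) of WT luminal cells and 81.8% (67.3% to 91.8%) of WT basal cells.

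Dusp1, a phosphatase that switches off MAP kinases, had 805 CPM in ablated hybrid, 1213 CPM in ablated luminal, 1643 CPM in ablated basal, 804 CPM in WT luminal and 1676 CPM in WT basal cells. It was highest in the basal groups, which were nearly equal. Dusp1 had a median over cells of 525 CPM (224 to 1379.7) in ablated hybrid, 470.3 CPM (53.8 to 1383) in ablated luminal, 872 CPM (89.3 to 2033) in ablated basal, 262 CPM (19.8 to 1296) in WT luminal and 858 CPM (31.8 to 2724) in WT basal cells. Dusp1 was found in 89.4% (80.8% to 95.04%) of ablated hybrid cells, the highest share, and 69.8% (53.9% to 82.8%) of WT luminal cells, the lowest share. The exons of Dusp1 overlap those of Ergic1 on the opposite strand. Dusp5 and Dusp6, phosphatases for ERK, had 144 to 375 CPM and 493.5 to 1033 CPM, and neither reached 2-fold in a comparison. Dusp5, whose promoter carries the CArG pair printed above, was lower in all 3 ablated groups than in either WT group in single cells, whereas in the libraries of many cells it had 361 CPM in ablated hybrid, against 202 CPM in WT luminal and 241 CPM in WT basal cells.

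Btg2, an antiproliferative gene activated by p53, had 511 CPM in ablated hybrid, 439.9 CPM in ablated luminal, 889 CPM in ablated basal, 561 CPM in WT luminal and 1809.8 CPM in WT basal cells. WT basal cells stood above all other groups. Btg2 had a median over cells of 309.8 CPM (60.7 to 696) in ablated hybrid, 102 CPM (8.29 to 550.4) in ablated luminal, 348 CPM (39.97 to 1416) in ablated basal, 284 CPM (83.5 to 724) in WT luminal and 937 CPM (361 to 2021) in WT basal cells. Btg2 was found in 59.2% (47.3% to 70.4%) of ablated luminal cells, the lowest share, and 88.4% (74.9% to 96.1%) of WT luminal cells, the highest share. Btg1, its relative, had 249 to 402 CPM and differed by less than 2-fold throughout.

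Gadd45b and Gadd45g encode stress sensors that bind the kinase MEKK4. Gadd45b had 774 CPM in ablated hybrid, 449 CPM in ablated luminal, 1851 CPM in ablated basal, 1406 CPM in WT luminal and 1623 CPM in WT basal cells. Ablated luminal and hybrid cells were low, and the other 3 groups high. Gadd45b had a median over cells of 535 CPM (239 to 1035) in ablated hybrid, 212 CPM (35.7 to 678) in ablated luminal, 1226 CPM (90.8 to 2547) in ablated basal, 763 CPM (131 to 2277) in WT luminal and 558 CPM (35.7 to 2543) in WT basal cells. Gadd45b was found in 88.2% (79.4% to 94.2%) of ablated hybrid cells, the highest share, and 72.4% (60.9% to 82.01%) of ablated luminal cells, the lowest share. Gadd45g had 198 CPM in ablated hybrid, 166 CPM in ablated luminal, 486 CPM in ablated basal, 154 CPM in WT luminal and 425 CPM in WT basal cells. Here WT luminal cells were low as well, and 1 cell held 43.6% of their reads. Gadd45g had a median over cells of 66.5 CPM (4.14 to 292) in ablated hybrid, 3.87 CPM (1.03 to 89.04) in ablated luminal, 8.90 CPM (3.88 to 492) in ablated basal, 5.35 CPM (1.90 to 129) in WT luminal and 71.8 CPM (4.13 to 551) in WT basal cells. Gadd45g was found in 55.3% (44.1% to 66.1%) of ablated hybrid cells, the highest share, and 31.6% (21.4% to 43.3%) of ablated luminal cells, the lowest share.

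Zfp36l1, which like Zfp36 binds AU-rich messages and speeds their decay, had 451 CPM in ablated hybrid, 289.97 CPM in ablated luminal, 682 CPM in ablated basal, 217 CPM in WT luminal and 664 CPM in WT basal cells. Basal cells were again higher. Zfp36l1 had a median over cells of 359 CPM (208 to 646) in ablated hybrid, 208 CPM (81.6 to 413) in ablated luminal, 471 CPM (249 to 859.9) in ablated basal, 129 CPM (61.7 to 279.9) in WT luminal and 467 CPM (185 to 695) in WT basal cells. Zfp36l1 was found in 81.6% (71.03% to 89.5%) of ablated luminal cells, the lowest share, and 93.0% (84.3% to 97.7%) of ablated basal cells, the highest share. Zfp36l1 overlaps Gm26669 and Zfp36 overlaps Gm44710 on the opposite strand. Zfp36 itself had 457 to 835 CPM and stayed within 2-fold. Ier5, which modulates heat-shock factor 1, had 228 CPM in ablated hybrid, 163 CPM in ablated luminal, 174 CPM in ablated basal, 390.1 CPM in WT luminal and 154 CPM in WT basal cells. WT luminal cells were highest. Ier5 had a median over cells of 154 CPM (12.9 to 362) in ablated hybrid, 74.5 CPM (7.33 to 245) in ablated luminal, 3.62 CPM (1.02 to 75.9) in ablated basal, 249.7 CPM (10.4 to 451) in WT luminal and 3.77 CPM (1.53 to 29.1) in WT basal cells, and 1 cell held 40.05% of its reads in ablated basal cells. Ier5 was found in 69.8% (53.9% to 82.8%) of WT luminal cells, the highest share, and 29.5% (16.8% to 45.2%) of WT basal cells, the lowest share. Ier2 and Ier3 had 659 to 908 CPM and 609 to 1398 CPM and stayed within 2-fold.

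**Figure D3:**
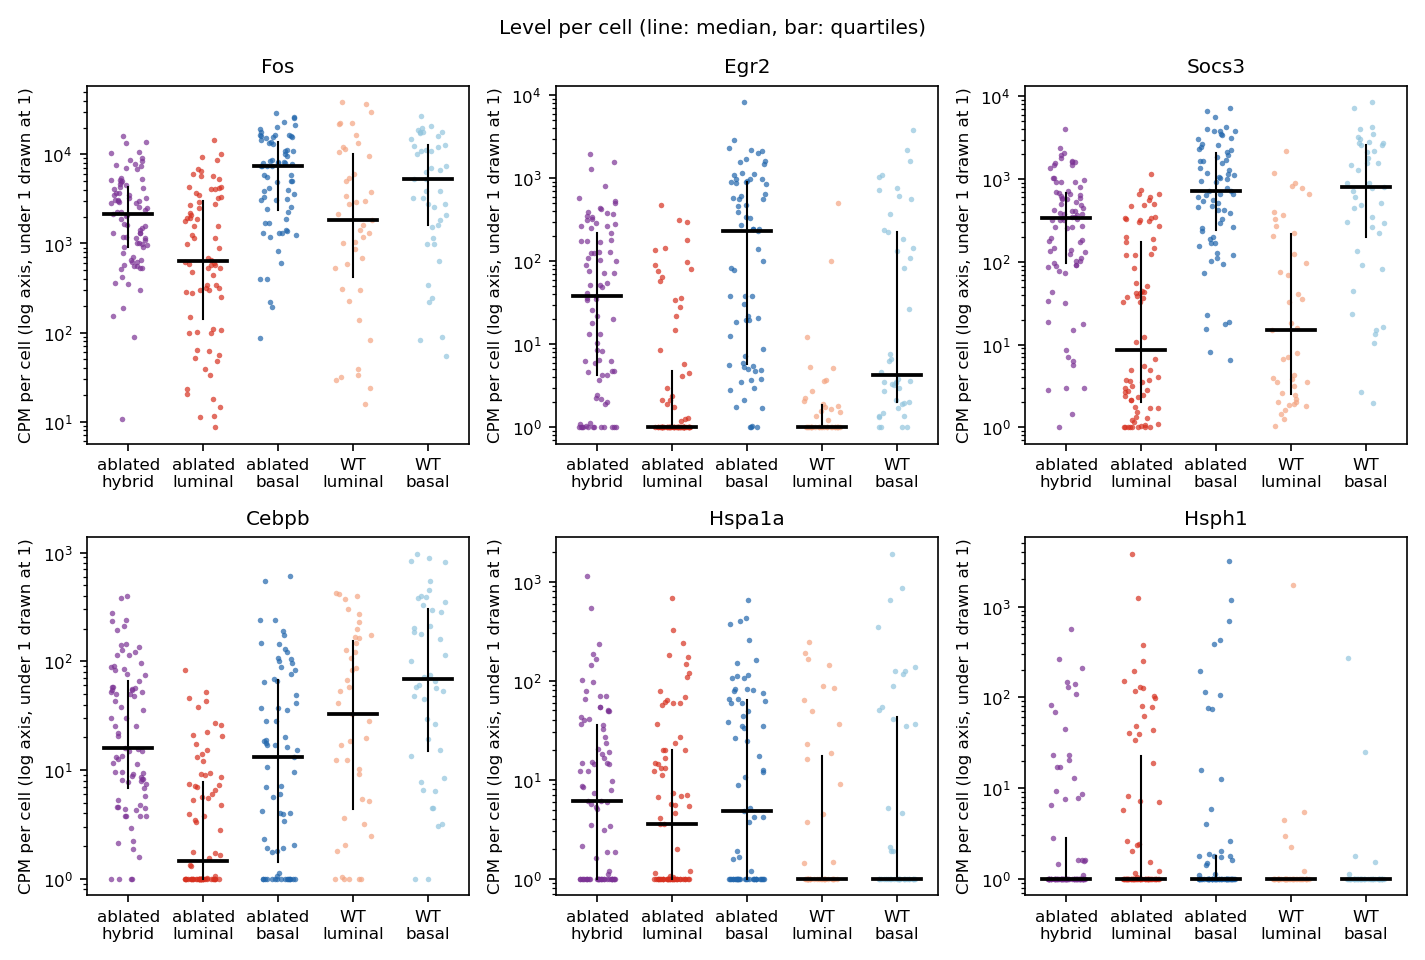
Level per cell (CPM, log axis, values under 1 drawn at 1) of Fos, Egr2, Socs3, Cebpb, Hspa1a and Hsph1 in the 5 groups; each point is a kept cell, lines are medians and bars run between the quartiles. Fos is present in most cells with wide spread, Egr2 and Socs3 are low in most luminal cells, and Hsph1 rests on few cells, with a median of 0.681 CPM in ablated luminal cells and 0 CPM in the other groups.

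Among the chaperones, the inducible Hsp70 genes were low and carried by a minority of cells. Hspa1a had 32.9 CPM in ablated hybrid, 33.03 CPM in ablated luminal, 50.5 CPM in ablated basal, 24.3 CPM in WT luminal and 108 CPM in WT basal cells. WT basal cells were highest, with 34.02% of their reads in 1 cell. Hspa1a had a median over cells of 6.08 CPM (0 to 35.9) in ablated hybrid, 3.54 CPM (0 to 19.9) in ablated luminal, 4.84 CPM (0 to 63.6) in ablated basal, 0.423 CPM (0 to 17.5) in WT luminal and 0.336 CPM (0 to 43.3) in WT basal cells. Hspa1a was found in 22.4% (14.03% to 32.7%) of ablated hybrid cells, 15.8% (8.43% to 25.96%) of ablated luminal cells, 30.99% (20.5% to 43.1%) of ablated basal cells, 18.6% (8.39% to 33.4%) of WT luminal cells and 20.5% (9.80% to 35.3%) of WT basal cells. Hspa1b, its near-identical neighbour, had 6.53 to 28.4 CPM. Reads of the pair may be lost or shared between them, so each level is uncertain. Hspa1a also overlaps Gm20481 on the opposite strand.

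Hspa8, the constitutive Hsp70, had 99.99 CPM in ablated hybrid, 98.7 CPM in ablated luminal, 116 CPM in ablated basal, 81.6 CPM in WT luminal and 173 CPM in WT basal cells. Hspa8 had a median over cells of 92.1 CPM (48.4 to 130.3) in ablated hybrid, 79.1 CPM (51.5 to 109.8) in ablated luminal, 71.8 CPM (33.6 to 123) in ablated basal, 60.2 CPM (21.9 to 127) in WT luminal and 72.4 CPM (46.8 to 178) in WT basal cells, which overlapped widely. Hspa8 was found in 75.3% (64.7% to 84.01%) of ablated hybrid cells, the highest share, and 59.2% (46.8% to 70.7%) of ablated basal cells, the lowest share. Small nucleolar RNA genes within it share its strand. Hsp90aa1, the inducible Hsp90, had 243 CPM in ablated hybrid, 214 CPM in ablated luminal, 319 CPM in ablated basal, 154 CPM in WT luminal and 459.9 CPM in WT basal cells. Its order was that of Hspa8, with WT basal cells highest and WT luminal cells lowest. Hsp90aa1 had a median over cells of 204 CPM (138 to 326) in ablated hybrid, 206 CPM (129 to 287) in ablated luminal, 238 CPM (116 to 524) in ablated basal, 101 CPM (62.96 to 262) in WT luminal and 336 CPM (223 to 586) in WT basal cells. Hsp90aa1 was found in 95.3% (88.4% to 98.7%) of ablated hybrid cells, the highest share, and 74.4% (58.8% to 86.5%) of WT luminal cells, the lowest share.

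Dnajb1, the Hsp40 partner of Hsp70 and a target of heat-shock factor 1, had another order, with 309 CPM in ablated hybrid, 356 CPM in ablated luminal, 382 CPM in ablated basal, 218 CPM in WT luminal and 144 CPM in WT basal cells. The ablated groups were higher than the WT groups in single cells. In the libraries of many cells the WT groups were higher instead, with 245 CPM in ablated hybrid, 209 CPM in ablated luminal, 207 CPM in ablated basal, 834 CPM in WT luminal and 330.4 CPM in WT basal cells. Dnajb1 had a median over cells of 180.4 CPM (26.3 to 412) in ablated hybrid, 205 CPM (41.5 to 527) in ablated luminal, 23.2 CPM (5.20 to 471) in ablated basal, 42.99 CPM (3.40 to 323) in WT luminal and 2.79 CPM (1.33 to 43.1) in WT basal cells. Dnajb1 was found in 68.2% (57.2% to 77.9%) of ablated hybrid cells, 72.4% (60.9% to 82.01%) of ablated luminal cells, 49.3% (37.2% to 61.4%) of ablated basal cells, 48.8% (33.3% to 64.5%) of WT luminal cells and 25% (13.2% to 40.3%) of WT basal cells. WT basal cells had the lowest share. Hspb1 (ENSMUSG00000004951.10, GRCm38 chr5:135887919-135889563, plus strand), the small chaperone Hsp27, had 115 CPM in ablated hybrid, 190.0 CPM in ablated luminal, 95.3 CPM in ablated basal, 21.3 CPM in WT luminal and 76.96 CPM in WT basal cells. WT luminal cells were the lowest. Hspb1 had a median over cells of 88.3 CPM (33.4 to 141) in ablated hybrid, 109 CPM (28.7 to 243) in ablated luminal, 58.7 CPM (17.1 to 115) in ablated basal, 4.95 CPM (0.459 to 27.5) in WT luminal and 31.8 CPM (1.41 to 84.7) in WT basal cells. Hspb1 was found in 65.9% (54.8% to 75.8%) of ablated hybrid cells, 65.8% (54.01% to 76.3%) of ablated luminal cells, 66.2% (53.99% to 77%) of ablated basal cells, 13.95% (5.30% to 27.9%) of WT luminal cells and 43.2% (28.3% to 58.97%) of WT basal cells.

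Hsph1 (ENSMUSG00000029657.15, GRCm38 chr5:149614287-149636376, minus strand), the Hsp110 exchange factor of Hsp70, rested on few cells. It had 17.3 CPM in ablated hybrid, 48.1 CPM in ablated luminal, 61.3 CPM in ablated basal, 25.2 CPM in WT luminal and 3.49 CPM in WT basal cells. A single cell held 98.5% of its reads in WT luminal and 78.3% in WT basal cells. Hsph1 was found in 11.8% (5.79% to 20.6%) of ablated hybrid cells, 19.7% (11.5% to 30.5%) of ablated luminal cells, 14.1% (6.97% to 24.4%) of ablated basal cells, 2.33% (0.0589% to 12.3%) of WT luminal cells and 2.27% (0.0575% to 12.02%) of WT basal cells. The quartiles over cells were 0 and 22.5 CPM in ablated luminal and 0 and at most 2.80 CPM in every other group.

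Ablated basal over WT basal cells, the comparison of basal cells with and without luminal ablation, found most immediate early genes within 2-fold of their WT level. Of the 37 measured members 2 were 2-fold or more higher, against 19.8% of all measured genes, and 4 were lower, against 14.9%. These are 5.41% and 10.8% of the members, below the shares over all genes. The higher ones were Hsph1, with a log2 ratio of 2.402, and Dnajb1, with 1.35. Lower were Cebpb (−2.18), Fosl1 (−1.33), Jund (−1.16) and Btg2 (−1.02). Fos (0.024), Dusp1 (−0.028), Ier3 (−0.039), Zfp36l1 (0.038) and Egr1 (−0.082) lay near 0. The median log2 ratio was −0.18 over the immediate early and −0.48 over the heat-shock members, beside 0.048 over all measured genes. With the top cell of each gene, the one with most of its reads, left out of each group, Jund and Btg2 came to −0.98 and −0.96, while Egr2, Per1 and Dusp5 passed 2-fold at 1.07, 1.23 and −1.02. Read depth, genes per cell and mitochondrial share differed along with this comparison (medians of 677373 reads, 4503 genes and 3.57% in ablated basal, against 978494 reads, 4621.5 genes and 2.96% in WT basal cells), and their part was not tested.

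In ablated luminal over WT luminal cells 5 immediate early genes were lower, and all 7 heat-shock genes had positive ratios, as did 6932 of the 11106 measured genes. In the libraries of many cells 5 of the 7 had positive ratios, with Dnajb1 at −1.95 and Hsp90aa1 at −0.30. Of 37 members 2 were higher, against 15.3% of all measured genes, and 5 were lower, against 6.61%. The share of members that were lower, 13.5%, was above that of all genes. Lower were Cebpb (−2.59), Gadd45b (−1.63), Fos (−1.26), Ier5 (−1.21) and Fosb (−1.04). Higher were Hspb1 (2.68) and Egr2 (1.06), the second with 30.6 CPM in ablated luminal against 9.52 CPM in WT luminal cells. The heat-shock ratios ran from 0.25 to 2.68 with a median of 0.68, beside −0.18 over the immediate early members and 0.21 over all genes. Under TMM scaling, which moved the median of all genes to 0.0050, the heat-shock median was 0.39. Under this scaling Egr2 came to 0.87 and Hspa8 to −0.022, so 6 of the 7 heat-shock ratios stayed positive. Egr2 also fell short of 2-fold with equal weight per cell and with median-of-ratios scaling. The median of Egr2 over cells was lower in ablated luminal than in WT luminal cells, where a single cell held most of its reads. Without the top cell, Hsph1 came to 2.14. Basal markers were present in ablated luminal and nearly absent in WT luminal cells (6413 against 168 CPM), and their part in these ratios was not tested.

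Ablated hybrid over ablated basal cells gave 2-fold differences of group levels in 1 direction. Here 0 members were higher, against 16% of all measured genes, and 9 were lower, or 24.3%, against 8.87%. Egr2 was lowest (−1.72), followed by Fos (−1.42), Hsph1 (−1.38), Egr1 (−1.34), Gadd45g (−1.25), Gadd45b (−1.25), Socs3 (−1.22), Nr4a2 (−1.09) and Dusp1 (−1.02). The zinc finger and nuclear receptor genes all had negative ratios, with a median of −1.21, and 11 of the 13 feedback genes were. Among the exceptions, Fosl1 and Jund had 0.68 and 0.68, and Cebpd had 0.51. The median log2 ratio was −0.52 over immediate early and −0.30 over heat-shock members, beside 0.14 over all genes. Without the top cell, Nr4a2 and Dusp1 came to −0.99 and −0.98, Hsph1 to −1.01 and Fosl1 to 1.03. With equal weight per cell, Gadd45g no longer reached 2-fold, while Fosb did. For Gadd45g and Nr4a2 the cells went the other way from the group levels. Their medians over cells, given above, were higher in ablated hybrid than in ablated basal cells, as were the shares of cells in which they were found. Basal markers were lower in hybrid cells as well (17745 against 33650 CPM), genes per cell were higher (medians of 6906 in ablated hybrid against 4503 in ablated basal cells), and their part was not tested.

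Ablated hybrid over ablated luminal cells, which shares its hybrid cells with the comparison above, showed fewer differences. Of the members 3 were higher, against 6.0% of all measured genes, and 1 was lower, against 4.19%. Egr2 (2.07), Socs3 (1.98) and Cebpb (1.84) were higher, and 22 of the 30 measured immediate early genes had positive ratios, with a median of 0.37. Fos had 0.61, Junb 0.61 and Egr1 0.42. Hsph1 was lower (−1.09), and came to −0.89 without the top cell. The median over heat-shock members was −0.097, beside −0.0067 over all genes.

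WT luminal over WT basal cells held the largest number of called members of the 5 comparisons, most of them lower. Of the members 2 were higher, against 22.3% of all measured genes, and 17 were lower, or 45.9%, against 21.3%. The largest were Egr2 (−3.88), Socs3 (−3.31), Maff (−2.34), Nr4a2 (−1.83) and Hspa1a (−1.79). Nr4a1 (−1.68), Btg2 (−1.67), Zfp36l1 (−1.57), Hsp90aa1 (−1.52), Egr1 (−1.51), Hspb1 (−1.48), Gadd45g (−1.41) and Hspa1b (−1.21) followed. Junb, Cebpb, Dusp1 and Fosl2 lay between −1.10 and −1.05, and Fos at −0.75 did not reach 2-fold. Higher were Ier5 (1.28) and Hsph1 (1.38), the second at −0.052 without the top cell of each group. The medians were −0.82 over immediate early, −1.21 over heat-shock and 0.0089 over all genes. With equal weight per cell, 11 members were lower, and Junb, Nr4a1, Nr4a2, Cebpb, Dusp1 and Hspa1b no longer reached 2-fold. Without the top cell, Fosl2 and Junb came to −0.95 and −0.92, and Myc to −1.15. Read depth and genes per cell were higher, and the mitochondrial share lower, in WT luminal than in WT basal cells. Medians were 5766 genes and 1.99% in WT luminal, against 4621.5 genes and 2.96% in WT basal cells, and their part was not tested.

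**Figure D4:**
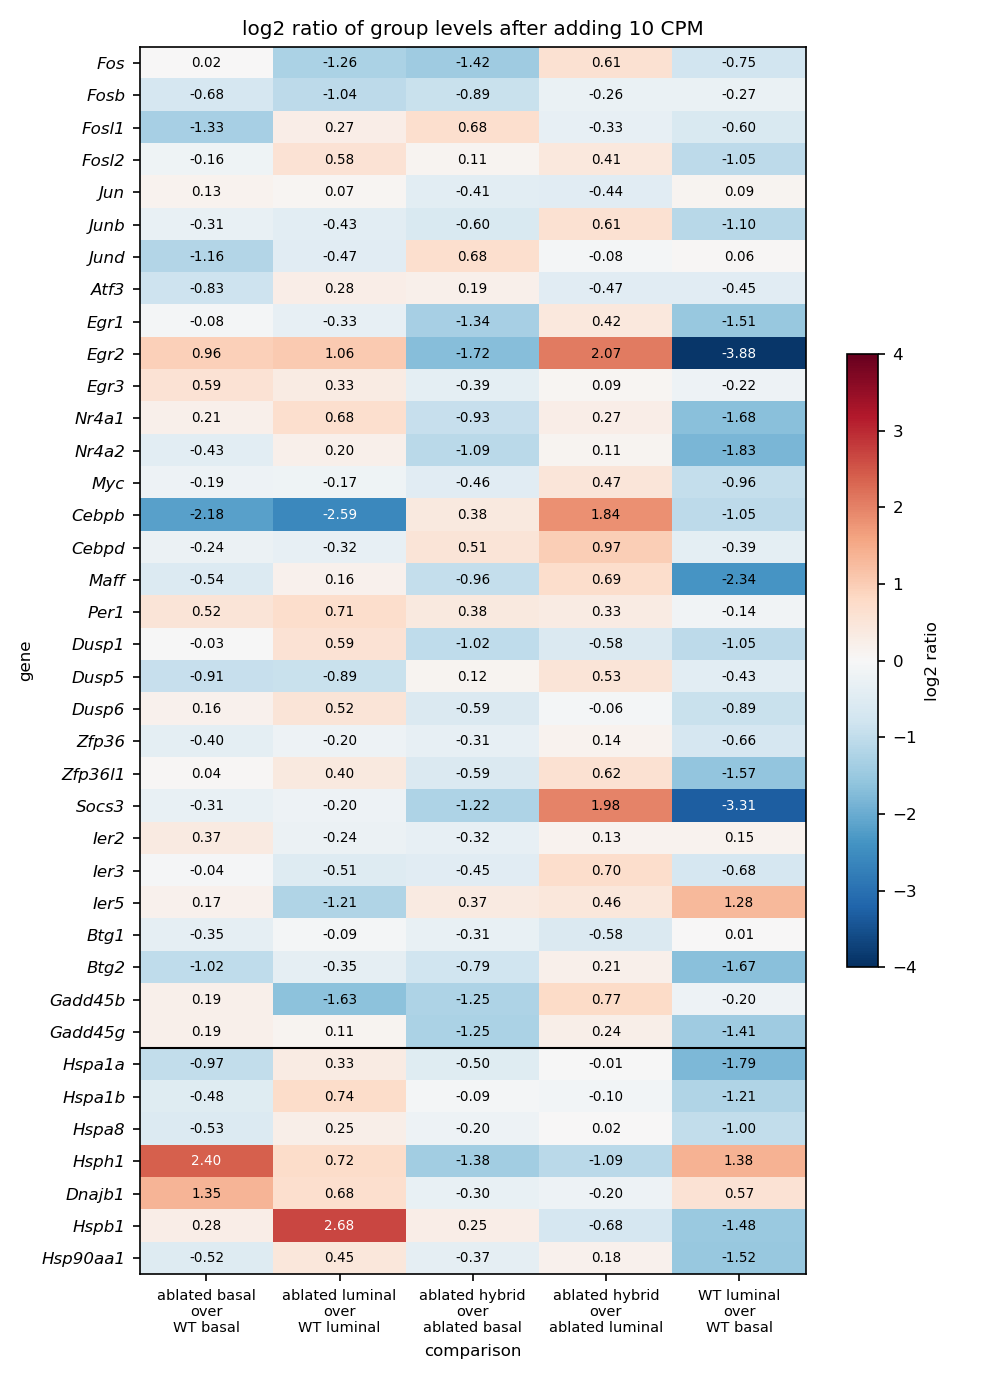
Log2 ratios of group levels after adding 10 CPM for the 38 genes (rows, heat-shock genes below the line) in the 5 comparisons (columns); red is higher and blue lower in the group named on top. The columns of ablated hybrid over ablated basal and of WT luminal over WT basal cells are mostly blue, with medians over the immediate early members of −0.52 and −0.82.

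Other genes of these pathways, taken from lists drawn up with earlier results of these data known, were called in both directions. Of 26 further early response genes, 4 were higher and 4 lower in ablated basal over WT basal, 2 higher and 1 lower in ablated luminal over WT luminal, 5 higher and 1 lower in ablated hybrid over ablated basal, 4 higher and 0 lower in ablated hybrid over ablated luminal, and 3 higher and 4 lower in WT luminal over WT basal cells. Their medians lay between −0.36 and 0.080. In ablated basal over WT basal cells these were shares of 15.4% higher and 15.4% lower, beside 19.8% and 14.9% of all measured genes. For ablated luminal over WT luminal cells they were 7.69% and 3.85%, beside 15.3% and 6.61%. For ablated hybrid over ablated basal cells they were 19.2% and 3.85%, beside 16% and 8.87%. For ablated hybrid over ablated luminal cells they were 15.4% and 0%, beside 6.0% and 4.19%. For WT luminal over WT basal cells they were 11.5% and 15.4%, beside 22.3% and 21.3%. Arc, Plaur, Nr4a3 and Id1 had the largest single ratios of this list. Arc, a synaptic immediate early gene, had 134 CPM in ablated hybrid, 52.4 CPM in ablated luminal, 303 CPM in ablated basal, 24.5 CPM in WT luminal and 581.8 CPM in WT basal cells. Nr4a3, the third of the orphan receptors, had 73.3 CPM in ablated hybrid, 14.1 CPM in ablated luminal, 144 CPM in ablated basal, 18.4 CPM in WT luminal and 217 CPM in WT basal cells, highest in the basal groups as Nr4a1 was. Plaur, the urokinase receptor, was instead lowest in the basal groups, with 99.3 CPM in ablated hybrid, 207 CPM in ablated luminal, 9.85 CPM in ablated basal, 140 CPM in WT luminal and 0.693 CPM in WT basal cells. Id1, an inhibitor of helix-loop-helix factors, had 4.55 CPM in ablated luminal against 53.3 CPM in WT luminal cells.

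Of 16 further heat-shock genes, 14 had positive ratios in ablated luminal over WT luminal cells, beside 6932 of the 11106 measured genes, with a median of 0.40. At 2-fold, 3 were higher, a share of 18.8% beside 15.3% of all measured genes, and 0 were lower, beside 6.61%. Hspb8, a small chaperone, had 451 CPM in ablated luminal against 35.8 CPM in WT luminal cells, a log2 ratio of 3.33. Bag3, the partner of Hspb8 in selective autophagy, had 154 CPM in ablated luminal against 51.01 CPM in WT luminal cells, and 51.01 CPM in WT luminal against 400.2 CPM in WT basal cells. Hspa4, an Hsp110 relative, had 223 CPM in WT luminal against 44.5 CPM in WT basal cells, and Stip1, which links Hsp70 to Hsp90, had 173 CPM in WT luminal against 37.2 CPM in WT basal cells. In WT luminal over WT basal cells 2 of the 16 were higher and 6 lower. These were 12.5% and 37.5%, beside 22.3% and 21.3% of all measured genes. For ablated basal over WT basal cells 1 was higher and 1 lower, or 6.25% each, beside 19.8% and 14.9%. For ablated hybrid over ablated basal cells 2 were higher and 0 lower, or 12.5% and 0%, beside 16% and 8.87%. For ablated hybrid over ablated luminal cells 0 were called in either direction, beside 6.0% and 4.19%. Of 11 measured upstream factors, Mapk8, the kinase JNK1 that activates Jun, had 55.9 CPM in ablated basal against 290.4 CPM in WT basal cells, and Mapk14, the kinase p38α, 42.4 CPM in ablated luminal against 4.74 CPM in WT luminal cells. Mrtfa, a cofactor of serum response factor, had 3.95 CPM in ablated basal against 30.2 CPM in WT basal cells, and Hsf2, a relative of heat-shock factor 1, had 17.2 CPM in ablated basal against 0.910 CPM in WT basal cells. Srf and Hsf1 are added for their role, after their values were seen. Srf, serum response factor itself, had 16.4 to 56.7 CPM and stayed within 2-fold, and Hsf1, heat-shock factor 1, had 36.4 CPM in ablated hybrid against 83.6 CPM in ablated basal cells.

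The wells of many cells gave 1 further library per group. Fos had 4603 CPM in ablated hybrid, 3782 CPM in ablated luminal, 4663 CPM in ablated basal, 1048 CPM in WT luminal and 8874 CPM in WT basal libraries. Egr2 had 173 CPM in ablated hybrid, 1.14 CPM in ablated luminal, 389.6 CPM in ablated basal, 1.99 CPM in WT luminal and 301 CPM in WT basal libraries. Socs3 had 394 CPM in ablated hybrid, 216 CPM in ablated luminal, 1201 CPM in ablated basal, 38.8 CPM in WT luminal and 2006 CPM in WT basal libraries. The basal libraries were highest for Egr2 and Socs3, as in single cells, and the WT basal library was highest for Fos. Of the immediate early members called in single cells, 4 of 4 had the same sign in these libraries for ablated basal over WT basal, 8 of 8 for ablated hybrid over ablated basal, 3 of 3 for ablated hybrid over ablated luminal and 14 of 14 for WT luminal over WT basal cells. A like sign can go with a small ratio: for ablated hybrid over ablated basal, Fos had −0.019 there, against −1.42 in single cells. The other called immediate early genes of that comparison had −1.58 to −0.95 there. The rate of like sign over all called genes was not counted. The median over the immediate early members for ablated basal over WT basal was −0.67 in these libraries, against −0.18 in single cells. All measured genes had a median of 0.027 in the libraries. In the libraries 10 immediate early members were at least 2-fold lower, against 4 in single cells, and 0 were 2-fold higher. Among the lower were Gadd45b at −1.60, Jun at −1.34 and Dusp1 at −1.21. The share of all measured genes that were 2-fold lower in the libraries was not counted. For ablated luminal over WT luminal the count of like sign was 3 of 6, with Fos, Egr2 and Cebpb of opposite sign. Fos had a ratio of 1.84 there, against −1.26 in single cells, and Cebpb had 1.11, against −2.59. The called heat-shock genes had the same sign in 0 of 2 cases for ablated basal over WT basal, 1 of 1 for ablated luminal over WT luminal, 0 of 1 for either hybrid comparison and 3 of 5 for WT luminal over WT basal cells. Hspb1 had a ratio of 2.69 there, with 189 CPM in the ablated luminal against 20.9 CPM in the WT luminal library. Hsph1 had 0 reads in the ablated basal, WT luminal and WT basal libraries, where 3 reads would be 1.32, 2.98 and 1.06 CPM. Its library ratio was therefore 0 for ablated basal over WT basal and for WT luminal over WT basal cells. A ratio of 0 has no sign, so Hsph1 could not match in these comparisons, although it is among the cases counted. In such libraries fewer cells of a type and less RNA per cell cannot be told apart.

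**Figure D5:**
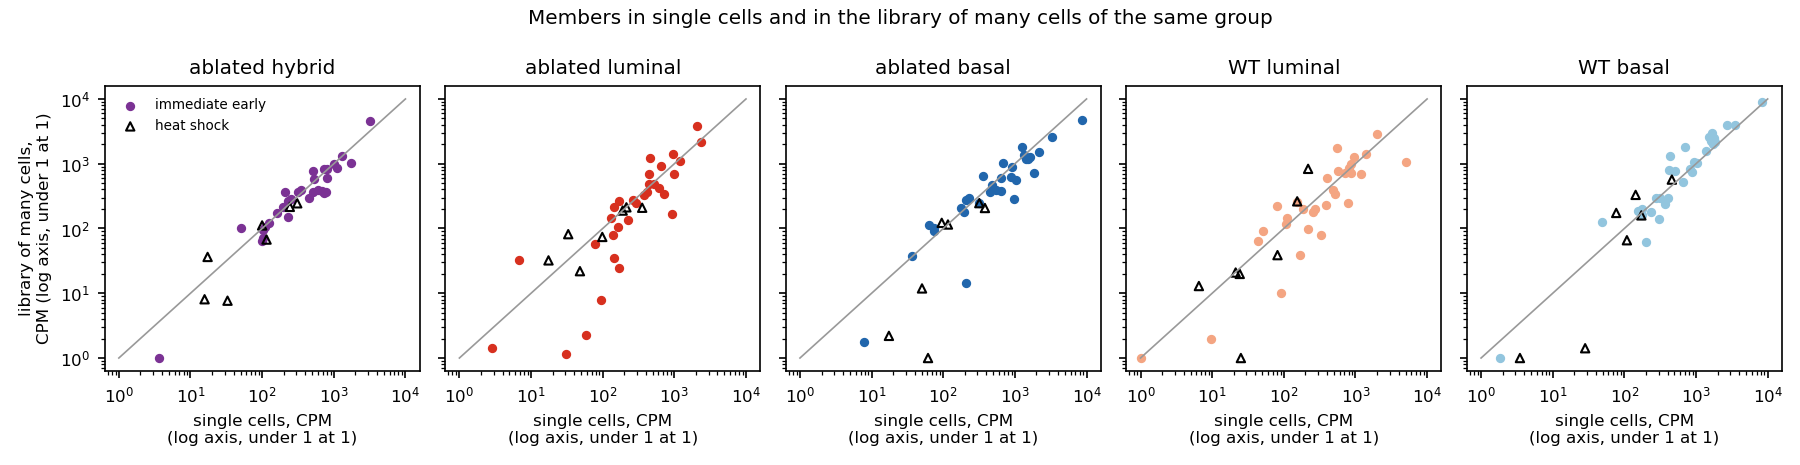
Level of each member in the library of many cells (CPM, log axis, values under 1 drawn at 1) against its level in single cells of the same group (CPM, log axis), 1 panel per group, with circles for immediate early and triangles for heat-shock genes; the line marks equal values. Fos lies off the line in WT luminal cells, at 1048 CPM in the library of many cells against 5002 CPM in single cells.

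Within groups, some immediate early genes varied together over cells. The following Spearman correlations describe cells that share a plate, a sort and animals that are not named, and whose genes share the depth of 1 library. Egr1 was the member most closely related to the sum of the other immediate early genes, with a mean of 0.62 over the 5 groups (0.52 to 0.75), then Zfp36 (0.58), Junb (0.58), Fos (0.52) and Fosb (0.51). Fosl1 stood at the other end with −0.15, and Dusp5 (0.0057), Fosl2 (0.027), Per1 (0.041) and Nr4a2 (0.045) were near 0. After thinning, the closest pairs were Fos with Zfp36 (mean 0.54), Fos with Egr1 (0.54), Egr1 with Zfp36 (0.53) and Nr4a1 with Gadd45b (0.51). Fos with Egr1 ran from 0.38 in ablated basal to 0.76 in WT luminal cells. Hspa1a with Hspa1b had a mean of 0.42 after thinning, Hspa1a with Dnajb1 ran from −0.075 to 0.28, and Hspa8 with Hsp90aa1 from −0.16 in ablated hybrid to 0.47 in WT luminal cells. The median over all pairs within a list lay between 0.077 and 0.15 in the 5 groups for the immediate early members and between 0.027 and 0.12 for the heat-shock members. The immediate early and heat-shock sums had correlations of 0.22 in ablated hybrid, 0.11 in ablated luminal, 0.17 in ablated basal, 0.19 in WT luminal and 0.40 in WT basal cells.

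The immediate early sum had correlations with reads per cell of 0.052 in ablated hybrid, 0.069 in ablated luminal, −0.019 in ablated basal, −0.42 in WT luminal and 0.31 in WT basal cells, and with genes per cell of −0.57 in WT luminal cells, the strongest of these. With the mitochondrial share it ran from −0.14 to 0.093. Among genes outside the list, Gas6, Nfkbia, Tm4sf1, Ppp1r15a and Tob1 had the closest pattern to the immediate early sum, with mean correlations of 0.28 to 0.25 over the 5 groups, out of 954 genes detected in at least 25% of cells of every group, whose median was −0.029. Ccnl1, Klf4, Ccn1, Tpt1 and Nfkbiz followed, down to 0.21. For the heat-shock sum, genes among the closest were Lmna (0.32), Cdkn1a (0.30), Mt2 (0.28) and Ubb (0.27), then Ccnl1, Ifrd1, Hspa5, Atf4 and Pde4b, down to 0.22. These means cover wide ranges between groups, from −0.11 to 0.60 for Nfkbia and from −0.093 to 0.58 for Lmna. Ppp1r15a, Tpt1, Ifrd1 and Atf4 also fell below 0 in a group, and the others named were positive in every group.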

How the data were processed

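The authors' file gives whole-number read counts for 384 wells, not normalized as far as the deposited values show. Tools listed in the submitters' processing notes, without roles, are HTSeq 0.6.0, STAR 2.5.2b, cutadapt 1.13 and Seurat, with the build GRCm38. Beside 49585 genes it lists 92 spike-ins with 11 reads, which were left out. Symbols were taken from GENCODE M21 for 49326 identifiers. Groups are the labels' treatment and cell type. The 38 members, the other gene lists and the naming rule were chosen with earlier results of these data known. Under that rule all 38 members are named, with fuller values for those that reached 50 CPM in a group and differed 2-fold in a comparison, and for Fos, Jun, Egr1, Hspa1a and Hspa8.

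Single-cell wells were kept with at least 100000 reads in genes, 1000 genes and at most 20% mitochondrial reads, so 55 were left out, 47 for few reads and 8 for mitochondrial share. No 2 wells held the same values. Doublets were not called. Levels are reads summed over kept cells relative to all reads in genes (CPM). The 5 comparisons are log2 ratios after adding 10 CPM, with no test, since each group is 1 sample. Shares of cells were counted after thinning to 100000 reads. Promoters are RefSeq windows of 250 bases before the start, cut where a GENCODE exon begins. Motifs were searched on both strands. Python 3.11.15, numpy 2.4.6, pandas 2.3.3, scipy 1.17.1, matplotlib 3.10.9, R 4.3.3 and edgeR 4.0.16 (for TMM factors only) were used. Steps were tested on simulated data. Alternatives changed the read minimum, mitochondrial limit, weight per cell, scaling, added CPM, filter on low genes, detection limit and thinning, or left out the top cell of a gene. Subtraction of the reads of negative wells was added after seeing the data. Of the genes most similar to the sums over cells, 1 is not reported here.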

Additional observations from a re-analysis of the deposited data

Results flagged for a closer look

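The immediate early reads of the 5 negative control wells were 277, 258, 266, 263 and 208. The well with 208 reads lay far from the others: its gap to the next value was 0.725 of the whole range, above the limit of 0.71 for 5 values. Chance flags about 1 in 20 groups in this way, and 5 measures of these wells were looked at. The same well had the fewest reads in genes, 7930, against 9923 to 13572 in the others, and its immediate early share was 2.62%, within the 1.96% to 2.79% of the rest.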

How the results depend on the processing

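No paired analysis was possible because the labels number no replicates and name no animals. Of 100 recomputed list medians 97 were counted as close to the reported value, as were 90 of 100 counts of members. The limits were wide, so these numbers do not show that the values were stable. Heat-shock medians counted as close ran from −0.63 to −0.049 in ablated basal over WT basal cells, where −0.48 was reported. They ran from 0.35 to 0.70 in ablated luminal over WT luminal cells, where 0.68 was reported. The count of lower members in ablated hybrid over ablated basal cells ran from 7 to 13, where 9 was reported. Of 1900 recomputed member ratios 1231 stayed within their counting interval and 668 did not. The 190 ratios without the filter on low genes are among the 1231 and could not change, since that filter does not enter a ratio. A further 1 took the opposite sign of a called value, Hsph1 in WT luminal over WT basal cells, at −0.052 without the top cell of each group. For ablated luminal over WT luminal cells the immediate early median was −0.39 with equal weight per cell, −0.51 with median-of-ratios scaling and −0.47 with TMM scaling, and the count of higher members was 4, 1 and 1 under these. Median-of-ratios and TMM scaling moved the median of all genes in that comparison to −0.013 and 0.0050, against 0.21 as reported. With equal weight per cell, 2 members were lower in ablated basal over WT basal and 11 in WT luminal over WT basal cells, and with median-of-ratios scaling 7 were lower in ablated basal over WT basal cells. Without the top cell, 4 members were higher in ablated basal over WT basal, 1 was higher in ablated hybrid over ablated basal, 0 were lower in ablated hybrid over ablated luminal and 1 was higher in WT luminal over WT basal cells. Of 40 summed levels 39 moved little, and of 570 shares of cells, 143 stayed within their interval under other detection limits or without thinning. Causes of these shifts were not tested. With 1 sample per group, differences between animals cannot be judged.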

Other observations

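The 55 single-cell wells left out for few reads or a large mitochondrial share still held immediate early reads, 52 to 11752 per well with a median of 166, against 208 to 277 with a median of 263 in the negative control wells. In 20 of the 55 the number was above the highest negative well.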
